A study of Mus musculus with 6 samples.

Results

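The genes described here are 8 monocyte genes outside the Ly6 family: Plac8, Ifitm6, Gpr141, Chil3, Fn3k, Nr4a1, Ace3 and Treml4. They were found by symbol in a table of 54532 genes, of which 29498 had at least 1 count. They were selected with their values in Olfr2 KO against wild type (WT) tissue known, so those values are given as a description and support nothing. Of the 8 genes, 7 had at least 1 count and 6 passed the filter on low counts that left 16237 genes for testing. Fn3k fell short of that filter, and Ace3 had 0 counts.

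Blood monocytes arise in the bone marrow and leave the blood for injured tissue, where they become macrophages. Mouse monocytes fall into classical cells, which carry the surface protein Ly6C and enter inflamed tissue, and nonclassical cells, which carry little Ly6C and patrol the vessel lining. In an aneurysm, where a stretch of an artery bulges, recruited monocytes and macrophages are a well-known part of the inflammation.

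Bulk RNA of the abdominal aorta was sequenced from Olfr2 KO mice, which lack the olfactory receptor gene Olfr2, and from wild type (WT) mice. All the mice had an aneurysm induced, and the tissue was taken at day 7, so neither group is a healthy aorta. There were 3 libraries of each genotype, with 17248918 to 21872027 gene counts. The labels give no strain, sex, age, number of animals in a library or way of induction, and they do not say whether Olfr2 is missing from every cell type. Any p-value therefore measures the spread between these libraries, which may be technical. Olfr2 (ENSMUSG00000070417) had 0 counts in every library, KO and WT alike, so its counts do not check the genotype labels. Values are CPM, counts scaled to a common library size, with sizes adjusted by TMM, a method that aligns libraries on the bulk of their genes. In tissue RNA, fewer cells of a type and less RNA per cell cannot be told apart.

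A pair of libraries stood apart. WT replicate 2 held 31.7 CPM of Lyz2, the lysozyme of macrophages and monocytes, against 3871 to 5899 CPM in the other libraries. Without Lyz2, the summed CPM of 9 macrophage genes was 6303 in WT replicate 2 and 3864 to 4882 elsewhere. The shortfall of Lyz2 was thus not seen in that sum. The summed CPM of 7 skeletal muscle genes was 864 in KO replicate 3 and at most 13.9 elsewhere. For some results below, values without either or both of these libraries are also given. Markers of the labelled tissue were present: 6 smooth muscle genes summed to 1581 to 2488 CPM in KO and 921 to 1390.2 CPM in WT, and none was at 0 in all libraries.

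Levels between genes were compared per kilobase of annotated exon. Plac8, a small cysteine-rich protein made in large amounts by classical monocytes, was by far the most abundant, at 273 CPM per kilobase over the 6 libraries, above 99.0% of tested genes. Chil3 followed at 36.1 and Ifitm6 at 32.1 CPM per kilobase, and the ranges of these 2 genes over the libraries overlapped. Nr4a1 stood at 10.02, Gpr141 at 7.56 and Treml4 at 6.60 CPM per kilobase. These last 3 genes lay near the middle of the tested genes, with 69.3%, 62.4% and 58.8% of them below. Neighbours in that order, Nr4a1 with Gpr141 and Gpr141 with Treml4, overlapped in their ranges. Fn3k lay at 0.0628 CPM per kilobase, above only 0.216% of tested genes. The ranges over libraries did not overlap between Plac8 and Chil3, between Ifitm6 and Nr4a1 or between Treml4 and Fn3k. Ifitm6 and Nr4a1 came near each other, with a lowest value of 19.3 and a highest of 17.9 CPM per kilobase.

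The promoters of Plac8, Ifitm6 and Gpr141 are shown because these genes had alike profiles over the libraries, and that of Nr4a1 because it peaked in the same library as 13 immediate early genes. Sequences come from RefSeq (GRCm38), which gave promoters for 7 of the 8 genes, and run from 250 bases before to 50 after the start of transcription, written 5′ to 3′ along the gene's own strand. Capitals mark matches to the motifs named after the sequences.
Plac8, start nearer the gene's middle, chr5:100563047-100563346, minus strand: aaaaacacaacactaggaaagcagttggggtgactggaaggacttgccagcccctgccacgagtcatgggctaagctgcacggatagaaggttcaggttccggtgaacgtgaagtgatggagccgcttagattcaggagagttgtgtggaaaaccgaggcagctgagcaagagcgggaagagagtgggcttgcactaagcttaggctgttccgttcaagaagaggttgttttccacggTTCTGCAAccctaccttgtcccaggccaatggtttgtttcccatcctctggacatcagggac
Plac8, upstream start, chr5:100572156-100572455, minus strand: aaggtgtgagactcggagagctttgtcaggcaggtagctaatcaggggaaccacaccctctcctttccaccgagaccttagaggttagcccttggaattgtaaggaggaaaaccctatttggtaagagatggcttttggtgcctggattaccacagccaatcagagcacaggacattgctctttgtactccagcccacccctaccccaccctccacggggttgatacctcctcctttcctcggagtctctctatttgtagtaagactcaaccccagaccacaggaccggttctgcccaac
Ifitm6, chr7:141016843-141017142, minus strand: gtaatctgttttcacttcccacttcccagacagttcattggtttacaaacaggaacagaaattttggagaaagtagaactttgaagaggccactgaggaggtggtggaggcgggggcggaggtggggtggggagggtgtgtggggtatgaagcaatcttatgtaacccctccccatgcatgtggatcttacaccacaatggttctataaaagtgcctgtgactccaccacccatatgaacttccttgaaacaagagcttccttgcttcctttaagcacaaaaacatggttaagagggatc
Gpr141, chr13:19824208-19824507, minus strand: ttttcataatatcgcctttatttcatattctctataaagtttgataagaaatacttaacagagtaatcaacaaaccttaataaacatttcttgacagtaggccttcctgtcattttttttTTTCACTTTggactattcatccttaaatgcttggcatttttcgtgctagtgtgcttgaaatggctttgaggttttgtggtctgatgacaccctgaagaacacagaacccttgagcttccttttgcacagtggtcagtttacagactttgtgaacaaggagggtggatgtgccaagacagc
Nr4a1, chr15:101266596-101266895, plus strand: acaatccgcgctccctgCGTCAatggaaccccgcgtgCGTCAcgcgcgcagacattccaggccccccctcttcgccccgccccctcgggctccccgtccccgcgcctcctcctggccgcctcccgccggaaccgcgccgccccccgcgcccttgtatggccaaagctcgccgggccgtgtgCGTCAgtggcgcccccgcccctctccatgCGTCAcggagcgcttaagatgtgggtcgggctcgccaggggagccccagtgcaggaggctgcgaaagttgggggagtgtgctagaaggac

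Motifs of 5 kinds, of factors known in monocytes or in these pathways, were searched on both strands. They were the PU.1 core GAGGAAGT, the C/EBP site TTGCNNAA, the core of the interferon-stimulated response element (ISRE) AAANNGAAA, the cyclic AMP response element (CRE) TGACGTCA and the NR4A response element AAAGGTCA. Of 32851 promoters of the same length, 3.2%, 10.8%, 10.6%, 1.79% and 1.51% held them, in that order. The nearer Plac8 promoter had a C/EBP match 12 bases before the start, and the Gpr141 promoter had an ISRE core match 130 bases before it. The CRE half-site TGACG, which is also contained in the CRE, was added to the search after the Nr4a1 promoter had been read. Nr4a1 held 4 half-sites, at 233, 213, 69 and 40 bases before the start. A half-site was present in 20.8% of all promoters, and 0.231% had at least 4. None of the 6 motifs was found in the windows of Ifitm6, Chil3, Ace3 and Treml4 or in the upstream one of Plac8. A match is a run of letters and not a measured binding site.

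Genes of the classical type are described first. Plac8 (ENSMUSG00000029322, chromosome 5, 100553725 to 100572245, minus strand, GRCm38, protein-coding) stood at 270.5, 324 and 332 CPM in the KO libraries, in the order of replicates 1, 2 and 3 that is kept below. In the WT libraries it stood at 544, 704 and 435 CPM. Every KO library was below every WT library, and WT replicate 3 came nearest to KO, 1.31-fold above the highest KO value. It averaged 309 ± 33.3 CPM over the KO and 561 ± 135 CPM over the WT libraries (SD of 3), so the KO mean was 55.1% of the WT mean. The log2 fold change of KO over WT was -0.86 (SE 0.18), and -0.67 without WT replicate 2.

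Ifitm6 belongs to the interferon-induced transmembrane proteins, a family known for blocking the entry of viruses into cells, and is itself mainly made by myeloid cells. It lies on chromosome 7 (ENSMUSG00000059108, 141015699 to 141017924, minus strand, protein-coding), 34.0 megabases from Olfr2. Its level was 19.7, 17.9 and 17.5 CPM in KO and 43.8, 48.7 and 26.9 CPM in WT. The KO libraries were close together and all below WT, where replicate 3 was again the lowest. It averaged 18.4 ± 1.20 CPM over the KO and 39.8 ± 11.4 CPM over the WT libraries (SD of 3), and the log2 ratio of KO to WT was -1.11 (SE 0.21). Without WT replicate 2 the log2 ratio was -0.95.

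The other Ifitm genes showed where Ifitm6 stood in its family. Ifitm3, the most abundant relative, stood at 751 ± 118 CPM over the KO and 1136 ± 331 CPM over the WT libraries (SD of 3). Its log2 ratio of KO to WT was -0.60 (SE 0.22). All KO libraries were below WT, by a narrow gap of 1.01-fold. Ifitm1 and Ifitm2, whose groups overlapped, each gave -0.29 on the log2 scale (SE 0.13 and 0.15). Ifitm5 and Ifitm10 averaged at most 1.41 and 4.23 CPM in a group, and gave 0.58 (SE 0.54) and -0.09 (SE 0.25). Ifitm7 had at most 1 count in a library. By edgeR, 0 of the 5 tested relatives passed after adjustment, and 2, Ifitm1 and Ifitm3, had an unadjusted p under 0.05. Both were lower in KO, as were 6.08% of all tested genes at that p. DESeq2 and limma-voom called 0 of the 5 relatives.

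Gpr141 encodes a G protein-coupled receptor without a known ligand that is found in myeloid cells (ENSMUSG00000053101, chromosome 13, 19749682 to 19824257, minus strand, protein-coding). It stood at 32.2, 33.9 and 33.0 CPM in KO and at 53.6, 68.5 and 49.7 CPM in WT. The KO libraries differed by only 1.05-fold among themselves, and the lowest WT library was 1.47-fold above the highest of them. It averaged 33.0 ± 0.814 CPM over the KO and 57.2 ± 9.91 CPM over the WT libraries (SD of 3), and the log2 ratio of KO to WT was -0.79 (SE 0.14). Without WT replicate 2 the log2 ratio of Gpr141 was -0.64. Its neighbour in sequence and name, Gpr141b, stood at 2.61 ± 0.865 CPM over the KO and 3.18 ± 0.592 CPM over the WT libraries (SD of 3), with overlapping groups and a log2 fold change of -0.29 (SE 0.31).

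Chil3 encodes Ym1, a secreted chitinase-like lectin without chitinase activity that classical monocytes, neutrophils and alternatively activated macrophages make (ENSMUSG00000040809, chromosome 3, 106147554 to 106167564, minus strand, protein-coding). It went the other way. Its level was 61.6, 67.2 and 79.6 CPM in KO and 44.2, 40.3 and 60.3 CPM in WT. Every KO library was above every WT library, but KO replicate 1 and WT replicate 3 nearly met, with a gap of 1.02-fold. It averaged 69.5 ± 9.24 CPM over the KO and 48.3 ± 10.6 CPM over the WT libraries (SD of 3), and the log2 ratio of KO to WT was 0.53 (SE 0.17). Without KO replicate 3 and WT replicate 2 the log2 ratio was 0.31. Of the 50-base stretches of Chil3 exons, 26.9% also occur in Chil4 or Gm6522, so its count could be split or lost between copies. Chil4 had at most 1 count in a library.

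Chil1, the other chitinase-like gene that passed the filter, stood at 10.2 ± 5.26 CPM over the KO and 5.41 ± 0.547 CPM over the WT libraries (SD of 3), with KO replicate 1 below the WT range and the other KO libraries above it. Among 8 tested genes of alternative activation, 0 passed after adjustment by edgeR. At an unadjusted p under 0.05, 2 were higher in KO and 0 lower, beside 5.23% and 6.08% of all tested genes. The 2 were Mrc1, the mannose receptor (log2 fold change 0.38, SE 0.15), and Retnla (1.27, SE 0.55), which was chosen for naming after its values were seen. DESeq2 and limma-voom called 0 of the 8. Arg1, arginase, gave -0.08 (SE 0.22). Neutrophil markers, from cells that also make Chil3, summed to 619 to 871 CPM in KO and 609 to 710 CPM in WT over 10 genes, none at 0 in all libraries. Of these 10 genes 2 had an unadjusted p under 0.05, both higher in KO, beside 5.23% of all tested genes. The part of neutrophils in the Chil3 values was not tested.

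**Figure D1:**
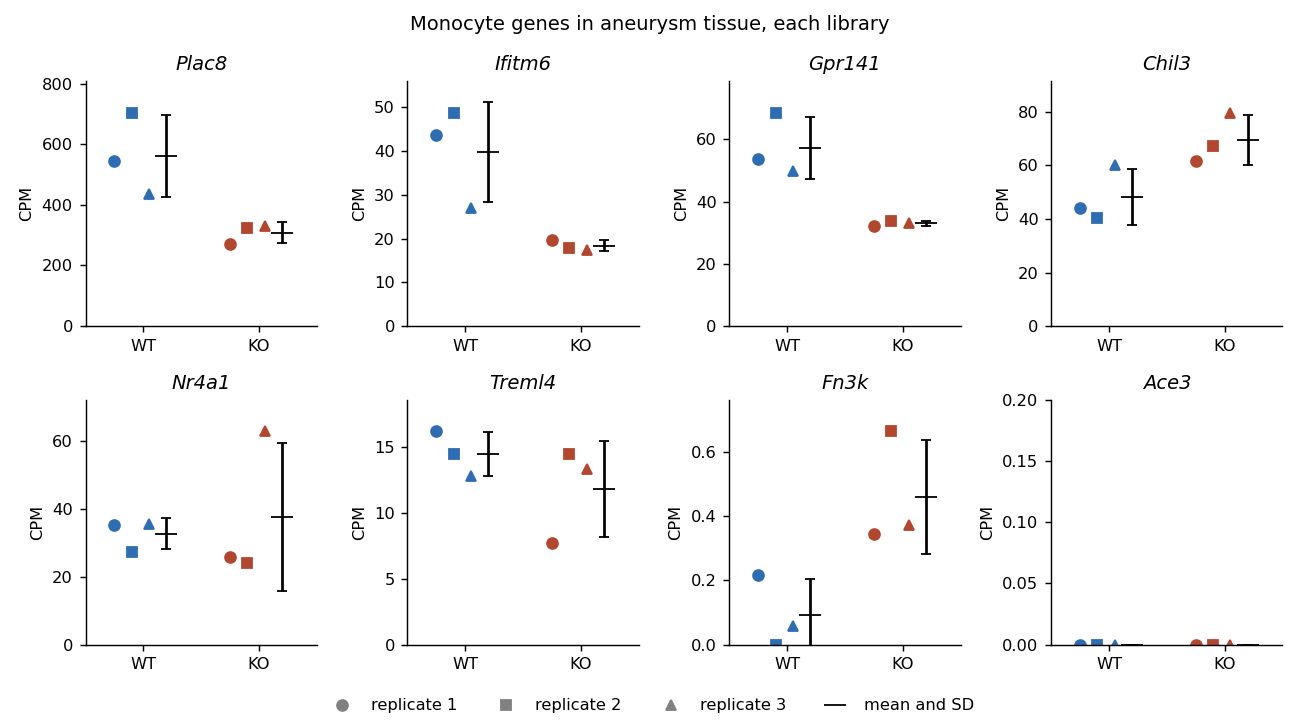
Level of each of the 8 genes in CPM (vertical axis, linear, starting at 0, with its own scale per gene) in the WT (blue) and KO (red) libraries, with the replicate given by the marker shape and the mean and SD (n = 3) in black, cut at 0 for Fn3k. Plac8, Ifitm6 and Gpr141 lie lower in every KO library, Chil3 lies higher, Nr4a1 has 1 high KO library at 62.8 CPM, and Ace3 is at 0 throughout.

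Nr4a1 and Treml4 are genes of the nonclassical cells. Nr4a1 encodes Nur77, an orphan nuclear receptor that nonclassical monocytes need for their development, and many other cells switch it on within minutes of a stimulus as an immediate early gene (ENSMUSG00000023034, chromosome 15, 101254269 to 101274795, plus strand, protein-coding). It stood at 25.8, 24.1 and 62.8 CPM in KO and at 35.2, 27.3 and 35.6 CPM in WT. KO replicate 3 was above every other library and 2.61-fold above the lowest KO library, while the other KO libraries were below all WT libraries. The log2 fold change was 0.20 (SE 0.34) with all libraries. Without KO replicate 3 it was -0.39, and without both KO replicate 3 and WT replicate 2 it was -0.50, so its direction rested on KO replicate 3.

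That library was also the highest of the 6 for each of 13 other immediate early genes, among them Jun, Junb, Dusp1, Zfp36 and Btg2. Of all tested genes, 14.9% had their highest value there. The summed level of the 13 genes was 1015 and 925 CPM in KO replicates 1 and 2, 1775 CPM in KO replicate 3 and 1084 to 1276 CPM in WT. Dusp1, a phosphatase that ends MAP kinase signals, stood at 340 CPM in KO replicate 3 against 111 to 240.3 CPM in the other libraries. The skeletal muscle genes given above were high in the same library, and their part in the Nr4a1 value was not tested. The groups overlapped for the relatives Nr4a2 (log2 fold change 0.01, SE 0.17) and Nr4a3 (-0.09, SE 0.32).

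Treml4 is a receptor of the TREM-like family on nonclassical monocytes and splenic macrophages that binds dead cells (ENSMUSG00000051682, chromosome 17, 48264295 to 48275360, plus strand, protein-coding). It stood at 7.69, 14.5 and 13.3 CPM in KO and at 16.2, 14.5 and 12.8 CPM in WT. The groups overlapped, and KO replicate 1 alone lay below the WT range. It averaged 11.8 ± 3.63 CPM over the KO and 14.5 ± 1.68 CPM over the WT libraries (SD of 3), and the log2 ratio of KO to WT was -0.29 (SE 0.23). Without KO replicate 1 the value was -0.06. Among its relatives, Treml2 had all KO libraries below WT, beside 9.01% of all tested genes. It stood at 37.4 ± 4.55 CPM over the KO and 56.9 ± 10.8 CPM over the WT libraries (SD of 3), with a log2 fold change of -0.60 (SE 0.16). By edgeR, 0 of 5 tested relatives passed after adjustment. Treml2 alone had an unadjusted p under 0.05, beside 6.08% of all tested genes lower. DESeq2 called 1 of the 5 as lower, where it called 1.74% of genes lower, and limma-voom called 0. Trem1, Trem2, Trem3 and the signalling adaptor Tyrobp had overlapping groups and log2 fold changes between -0.12 and 0.17. Treml1 stayed under 1 CPM in each library and was not tested.

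Fn3k and Ace3 were at the limit of this depth. Fn3k encodes fructosamine-3-kinase, which frees proteins of sugar adducts and is known best from red blood cells (ENSMUSG00000025175, chromosome 11, 121434913 to 121450491, plus strand, protein-coding). It had 6, 13 and 8 counts in KO replicates 1 to 3 and 4, 0 and 1 counts in WT replicates 1 to 3. Every KO library had more counts than any WT library. All KO libraries lay above WT for 7.83% of the tested genes, of which Fn3k is not one. The 27 counts of KO against 5 of WT gave a ratio of 4.83 per library size, with an exact 95% interval of 1.83 to 16.1. That interval pools the libraries of each genotype and covers counting error only. Since Fn3k was chosen with these values known, the interval is no test of a difference. Fitted without the filter on low counts, its log2 fold change was 2.21 (SE 0.92). Summed erythroid genes overlapped between the groups, at 57.2 to 233 CPM in KO and 31.3 to 276 CPM in WT. The related kinase gene Fn3krp stood at 10.6 ± 1.09 CPM over the KO and 10.3 ± 1.32 CPM over the WT libraries (SD of 3), and 0 of 6 genes of glycation defence had an unadjusted p under 0.05 by edgeR or was called by DESeq2. All KO libraries were above WT for 3 of these 6, Glo1, Hagh and Sord, beside 7.83% of all tested genes.

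Ace3, a relative of the angiotensin-converting enzyme gene (ENSMUSG00000101605, chromosome 11, 105994675 to 106005443, plus strand, protein-coding), had 0 counts in each library. A count of 0 allows up to 3 counts, or 0.1399 to 0.182 CPM by library, so Ace3 was not detectable at this depth. Ace itself, which nonclassical monocytes and endothelium carry, stood at 85.3 ± 18.6 CPM over the KO and 86.4 ± 20.7 CPM over the WT libraries (SD of 3). Its log2 fold change was -0.02 (SE 0.20).

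Across the whole table, the quasi-likelihood test of edgeR, with p-values adjusted by the Benjamini-Hochberg method, called 0.0123% of 16237 genes and 0 of the 6 tested members. At an unadjusted p under 0.05, Plac8, Ifitm6 and Gpr141 were lower in KO and Chil3 was higher, beside 6.08% of all tested genes lower and 5.23% higher. All KO libraries lay below WT for 3 of the 6 members and above for 1, beside 9.01% and 7.83% of tested genes. DESeq2 called Plac8, Ifitm6 and Gpr141 as lower, where it called 1.74% of genes lower and 1.03% higher, and limma-voom called 0% of genes. Without WT replicate 3, the WT library nearest to KO for these genes, edgeR called the same 3 genes and 0.931% of all. Without the filter on low counts it called these 3 of 7 and 2.18% of all. Without KO replicate 3 the unadjusted count was 4 lower and 0 higher, with Nr4a1 among the lower ones and Chil3 no longer counted. Since the members were chosen by this contrast, nothing is read from these counts.

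The other genes of the cell type came from lists of 35 genes, all of which were tested. By edgeR 0 of the 35 passed after adjustment, and 11 were lower and 1 higher in KO at an unadjusted p under 0.05. DESeq2 called 5, all lower, where it called 1.74% of all tested genes lower and 1.03% higher. The KO libraries lay below WT for 13 and above for 1. The gap between the nearest libraries of the groups ran from 1.0002-fold for Spi1 to 1.47-fold over these 13. It was 1.02-fold for the 1. Of all tested genes, 6.08% and 5.23% passed the unadjusted p, and 9.01% and 7.83% had groups that did not overlap, lower and higher in KO. The median log2 fold change was -0.20, against 0.006 over all tested genes. Without KO replicate 3 and WT replicate 2, 9 were lower and 1 higher at an unadjusted p under 0.05, and leaving out KO replicate 1 alone gave 7 and 1. The shares of all tested genes at that p in these settings are not given here. Without WT replicate 3 edgeR called 3 of the 35, beside 0.931% of all tested genes. They were Ly6c2, Ms4a4c and Ms4a6c, and Ms4a6c is named only for this call, after its values were seen.

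Of 13 classical monocyte genes, 5 were lower and 1 higher in KO at an unadjusted p under 0.05, with a median log2 fold change of -0.15. Ly6c2, which encodes the Ly6C that defines these cells, stood at 159 ± 67.9 CPM over the KO and 501 ± 241 CPM over the WT libraries (SD of 3). It shares sequence with other Ly6c genes, so its count is uncertain. Ms4a4c, a membrane protein gene named here after its values were seen, gave a log2 fold change of -1.22 (SE 0.22) and Fcgr1, a receptor for immunoglobulin G, -0.68 (SE 0.24). Ccr2, the chemokine receptor that draws classical monocytes from the marrow, overlapped between the groups, with a log2 fold change of -0.34 (SE 0.31). Cd14, a coreceptor for bacterial lipopolysaccharide, gave 0.03 (SE 0.22), and Hp, haptoglobin, gave 0.49 (SE 0.25). Mgst1, the 1 gene higher at an unadjusted p under 0.05 and also named after its values were seen, gave 0.49 (SE 0.17). Genes of the list lay on both sides of 0. Their summed level overlapped between the groups, at 3536 to 3954 CPM in KO and 3854.5 to 4479 CPM in WT. Hp, with means of 1644 CPM in KO and 1172 CPM in WT, was the largest part of that sum.

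Of 12 nonclassical monocyte genes, 3 were lower and 0 higher in KO at an unadjusted p under 0.05, with a median log2 fold change of -0.24. Their summed level overlapped between the groups, at 822 to 1235 CPM in KO and 1138 to 1342 CPM in WT. Fcgr4, an Fc receptor, gave -0.51 (SE 0.18) and Itgal, the integrin subunit of LFA-1, -0.44 (SE 0.17). Both had all KO libraries below WT, by narrow gaps of 1.01-fold for Fcgr4 and 1.06-fold for Itgal. Cx3cr1, the fractalkine receptor, gave -0.41 (SE 0.33) and Tnfrsf1b, a TNF receptor, -0.20 (SE 0.19), with overlapping groups. Among 10 development factors 3 were lower and 0 higher, with a median of -0.20. The 3 were Irf8, Flt3 (log2 fold change -0.75, SE 0.23) and Kit (-0.56, SE 0.15). Flt3 is also on the list of dendritic cell genes, and Kit is named here after its values were seen. Irf8, a transcription factor of monocyte and dendritic cell progenitors, gave -0.42 (SE 0.15). Spi1, which encodes PU.1, gave -0.35 (SE 0.16) and Csf1r, the receptor for the main growth factor of macrophages, -0.19 (SE 0.13). Runx1 gave -0.21 (SE 0.10), while Cebpb, which encodes C/EBP beta, gave 0.41 (SE 0.35) with overlapping groups, and 4 of the 10 factors had a higher mean in KO.

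**Figure D2:**
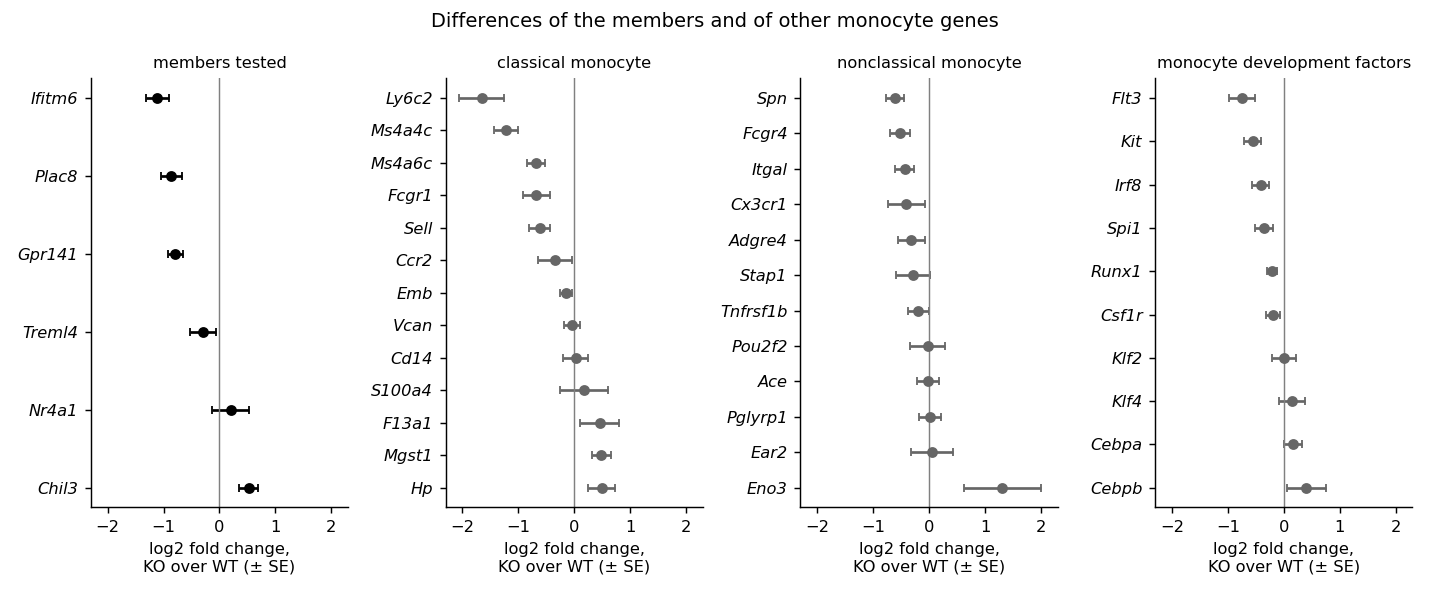
Log2 fold change of KO over WT with its SE (horizontal axis) from edgeR for the 6 tested members, chosen by these values, and for 13 classical monocyte, 12 nonclassical monocyte and 10 development genes. Ifitm6, Plac8 and Gpr141 lie between -1.11 and -0.79, and the other lists scatter on both sides of 0 with medians of -0.15, -0.24 and -0.20.

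The profile over the 6 libraries was compared between genes as the root mean square difference of log2 CPM, each gene centred on its mean, where 0 means the same profile. Plac8 and Gpr141 were the closest pair of members at 0.112, followed by Plac8 with Ifitm6 at 0.215 and Ifitm6 with Gpr141 at 0.236. Ifitm6 and Chil3 were farthest apart at 0.927. The points are 6 libraries that all genes share, so these values are a description. The profiles also hold the difference between KO and WT by which the members were chosen. Genes with a like fold change therefore rank as alike. In WT, Plac8, Ifitm6 and Gpr141 were each highest in replicate 2 and lowest in replicate 3, an order held by 15.2% of tested genes.

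Among 13275 genes with at least 1 CPM on average, the profile most like Plac8 was that of Sp100, a nuclear body protein induced by interferon, at 0.0299. Epsti1 and Trim34a followed. For Ifitm6 the most alike were Phf11c at 0.0636, Ifit1 at 0.0899 and Ifit2 at 0.0987, and the Ifit genes are textbook interferon targets. Gpr141 was most like Mbnl3, Tor1aip1 and Epsti1, at 0.0526 to 0.0804. The median difference from all compared genes was 0.507 for Plac8, 0.624 for Ifitm6 and 0.451 for Gpr141. The genes named here as most like these members had log2 fold changes of KO over WT between -1.19 and -0.65.

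The genes nearest to the other members were of other kinds. Chil3 was most like Cavin2, a protein of caveolae, at 0.0944, then Rnf146 and Zfr2. Nr4a1 was most like Srrm4, Enpp6 and Rgs16, at 0.0749 to 0.135. Treml4 was most like Bin2 at 0.0959, Asb2 at 0.101 and Adgre4 at 0.101, and Adgre4 is itself on the list of nonclassical monocyte genes.

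Most interferon response genes had the WT libraries in the same order as Plac8, Ifitm6 and Gpr141. Of 20 such genes 17 were highest in replicate 2 and lowest in replicate 3 among WT. All 6 NK cell genes had that order too, as had 9 of the 35 other monocyte genes and 2 of 8 T cell genes. All 20 interferon response genes were lower in KO at an unadjusted p under 0.05 by edgeR, and 0 passed after adjustment. DESeq2 called 17 as lower, and 18 had all KO libraries below WT. Of all tested genes, 6.08% were lower at that p, DESeq2 called 1.74% lower, and 9.01% had all KO libraries below WT. The list, like the others, was chosen with earlier results of these data known. The median log2 fold change of the 20 genes was -0.99. Their summed level was 2696, 2741 and 3649.9 CPM in KO and 6123, 7749 and 4421 CPM in WT. Among them Irf7, which drives interferon production, stood at 329 ± 128 CPM over the KO and 805 ± 294 CPM over the WT libraries (SD of 3). Their part in the values of Plac8, Ifitm6 and Gpr141 was not tested.

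**Figure D3:**
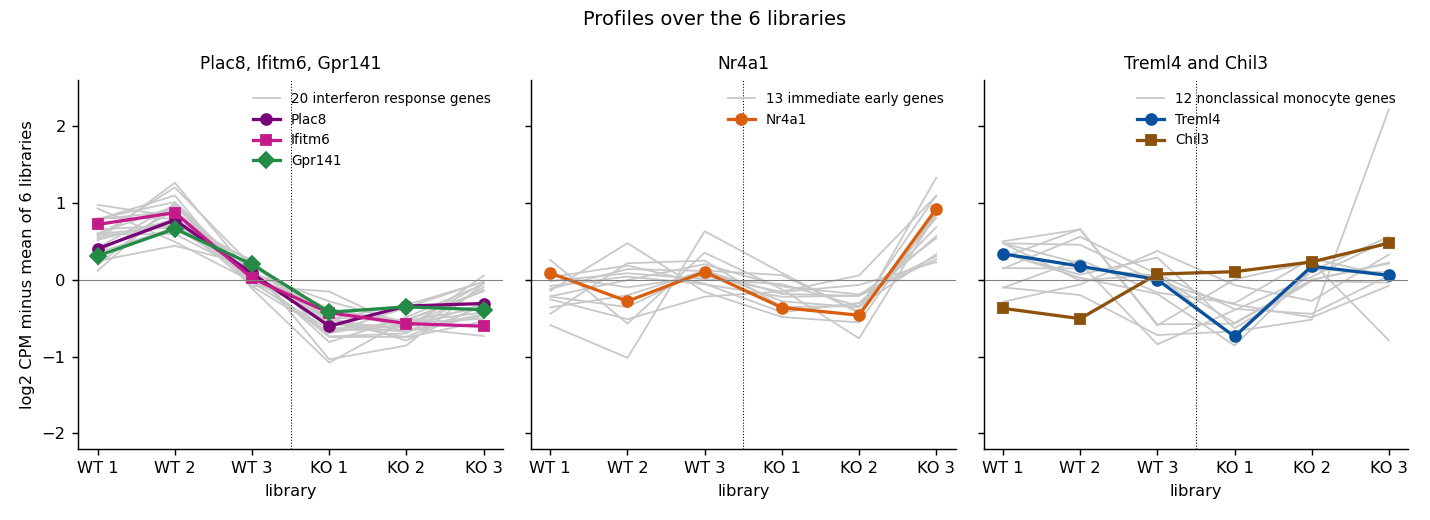
Profiles over the 6 libraries, as log2 CPM minus the gene's own mean (vertical axis), WT left and KO right of the dotted line. Plac8, Ifitm6 and Gpr141 are drawn over 20 interferon response genes (grey, left), and these profiles hold the difference the members were chosen by. Nr4a1 peaks with 13 immediate early genes (grey, middle) in KO replicate 3. Treml4 and Chil3 are drawn over 12 nonclassical monocyte genes (grey, right).

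Markers of some other leukocytes also differed between the groups, while those of others overlapped, and the same genotype contrast holds them all. The 6 NK cell genes were all lower in KO at an unadjusted p under 0.05, with sums of 77.9 to 123 CPM in KO and 159.8 to 257 CPM in WT. Of all tested genes, 6.08% were lower and 5.23% higher at that p. All 8 T cell genes were lower as well, with sums of 165 to 205 CPM against 272 to 329 CPM, and of 8 dendritic cell genes 5 were lower, with sums of 364 to 378 CPM against 523 to 674 CPM. Plasmacytoid dendritic cells, which also make Plac8, had 1 of 6 genes lower and overlapping sums of 149 to 189 CPM and 176 to 216 CPM. Macrophage genes without Lyz2 overlapped too, with sums of 3864 to 4882 CPM in KO and 3908 to 6303 CPM in WT, 0 of 9 lower and 1 higher. B cell genes summed to 39.5 to 65.7 CPM in KO and 48.6 to 172 CPM in WT. Of these 6 genes 0 had an unadjusted p under 0.05, and 4 had a higher mean in KO. The neutrophil sums given above overlapped as well.

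White adipocyte genes were higher in KO for 5 of 7 at an unadjusted p under 0.05, with sums of 781 to 1480.5 CPM in KO and 185 to 721 CPM in WT. Smooth muscle genes were higher for 5 of 6, beside 5.23% of all tested genes. No marker in these lists was at 0 in all libraries. WT replicate 3 had the highest adipocyte sum and the lowest interferon, NK cell and smooth muscle sums among WT, and it was the WT library nearest to KO for Plac8, Ifitm6, Gpr141 and Chil3. Whether these cell types took part in the members' values was not tested.

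**Figure D4:**
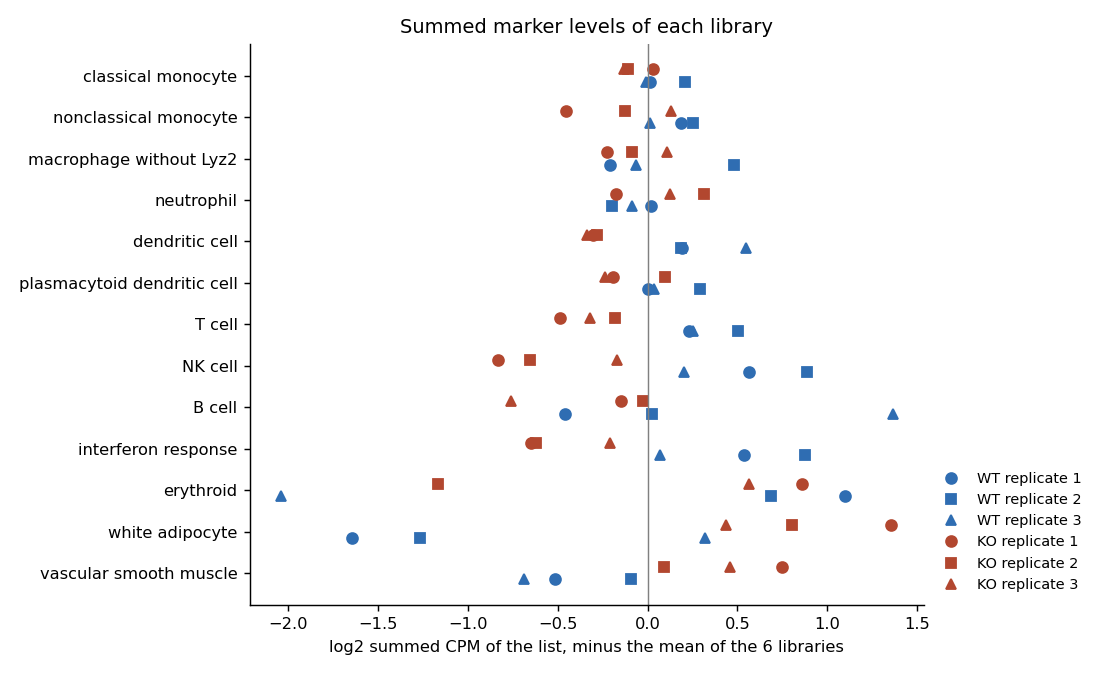
Summed CPM of each fixed list per library, on a log2 scale relative to the mean of the 6 libraries (horizontal axis), WT in blue and KO in red with the replicate as marker shape. KO and WT overlap for both lists of monocyte genes and for macrophage and neutrophil genes. They separate, with KO lower, for T cell, NK cell, dendritic cell and interferon response genes. With KO higher, they separate for white adipocyte and vascular smooth muscle genes.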

How the data were processed

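RNA was selected on poly-T beads and primed with random hexamers, per the labels' protocols. The deposited table holds raw whole-number counts per gene for 3 KO and 3 WT libraries. The submitters' processing notes name HISAT2 2.0.5, featureCounts 1.5.0-p3 and the build GRCm38. Not given in the sources used here are the strand setting, the handling of reads that match several genes, the annotation release and the method of induction, so reads of overlapping genes or near-identical copies may be split or lost.

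The main test was that of edgeR 4.0.16 in R 4.3.3 (filterByExpr, TMM, quasi-likelihood test, Benjamini-Hochberg over all tested genes, adjusted p under 0.05). SE is the absolute log2 fold change over the square root of the F statistic. Alternatives used other scalings and filters, DESeq2 1.42.0, limma-voom (limma 3.58.1), leaving out each library, and a replicate block. Leaving out KO replicate 3 with WT replicate 2 was added after seeing the data. The tests were checked on simulated data. Log2 CPM used a prior count of 2. Exon lengths, positions and shared stretches of 50 bases came from GENCODE mouse release 21 (GRCm38).

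The members and the 27 gene lists were chosen with earlier results of these data known. By rule the text could name all 8 members, relatives with at least 1 count, the 5 most abundant genes of each other list and the 3 genes most like each tested member in profile. No member shared exon bases with another gene. Precision is limited by 3 libraries per genotype, and limits from counts cover counting error only.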

Additional observations from a re-analysis of the deposited data

How the results depend on the processing

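The main test called 2 genes, 0 members and 0 of the other monocyte genes. Without the filter on low counts it called 644 genes, 3 members and 8 other monocyte genes, and DESeq2 called 451, 3 and 5. Limma-voom called 0 genes. Leaving out each library in turn gave 0 to 155 genes, 0 to 3 members and 0 to 3 other monocyte genes, and the highest counts came without WT replicate 3. Without KO replicate 3 and WT replicate 2 together there were 3 genes and 0 members. In each setting with 3 members, they were Plac8, Ifitm6 and Gpr141. Other scalings and the stricter filter left the counts at 2, 0 and 0. The causes of these differences were not tested.

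Over 15 alternatives the log2 fold change ran from -1.01 to -0.67 for Plac8, -1.33 to -0.90 for Ifitm6, -0.88 to -0.64 for Gpr141, 0.31 to 0.72 for Chil3 and -0.46 to -0.06 for Treml4. Nr4a1 ran from -0.50 to 0.44 and changed sign in 2, both without KO replicate 3. With the replicate block, the test called 0 genes, 0 members and 0 other monocyte genes. Same-numbered libraries did not deviate together (correlations of -0.101, -0.0622 and -0.12). The labels do not say whether the numbers pair the libraries. With 3 libraries per genotype, these correlations cannot decide it. Fn3k, at 27 and 5 counts, and Ace3, at 0, are limited by depth.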
